A study of Sus scrofa with 6 samples.

Results

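miR-7 and miR-375 are microRNAs (miRNAs, short RNAs that repress messenger RNAs by base pairing) best known from neuroendocrine cells. They were followed here in cultured immature pig Sertoli cells, the somatic cells that nurse the germ cells of the seminiferous tubule. The members were the entries of the deposited table named miR-7 or miR-375, with or without an arm. There were 3 of them among 1645 entries: miR-7-5p and miR-7-3p, the strands from the 5′ and 3′ sides of the miR-7 hairpin, and miR-375. The table held 358 known pig miRNAs and 1287 predicted ones.

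The cells were taken from the testes of fetal pigs (80 to 90 days of gestation) and grown in medium with 10% fetal bovine serum. After 6 h of culture they were either left untreated (control, 3 libraries) or given 250 µM AA2P (L-ascorbic acid 2-phosphate, as its sesquimagnesium salt hydrate, a stable form of vitamin C; 3 libraries). How long the treatment lasted is not stated in the sources used here. Nothing in the labels says whether replicates were separate cultures or separate animals, so a p-value measures only how far these libraries differ, and that spread could be technical.

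A miRNA is cut from a hairpin, and usually 1 of its strands is loaded into an Argonaute protein while the other, the passenger, is degraded. miR-7 is an old, highly conserved miRNA of pancreatic islets, pituitary and brain that represses the EGF receptor and insulin receptor substrates, and it is bound by the circular RNA Cdr1as. miR-375 is an islet and pituitary miRNA that restrains insulin secretion through myotrophin. RefSeq lists 2 miR-7 genes in the pig assembly Sscrofa11.1: MIR7-2 lies within HNRNPK, which encodes an RNA-binding protein, and MIR7-1 lies between AEN and DET1. The table has 1 entry for the 5p strand, so the output of these genes cannot be told apart.

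The members differed widely in level and less widely in their change with AA2P. miR-7-5p was among the most abundant miRNAs of these cells and was 1.57-fold higher with AA2P. miR-375 was scarce and 1.51-fold higher. miR-7-3p, the passenger strand, was 1.23-fold higher in mean and did not pass the test. Levels are in TPM, here reads scaled to 1 total over all entries of the table, the same in each library, and folds are ratios of mean TPM. In the bulk RNA used here a change in the number of cells that make a miRNA and a change in its level per cell cannot be told apart.

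miR-7-5p, the loaded strand, stood at 8715, 9489 and 11188 TPM in control replicates 1, 2 and 3 and at 13638, 17465 and 15122 TPM in AA2P replicates 1, 2 and 3. All AA2P libraries lay above all control libraries, with AA2P replicate 2 highest and control replicate 1 lowest. Its share of the library was 0.980% ± 0.126 in the control group and 1.54% ± 0.193 in the AA2P group (SD, n = 3 each). By its group mean it ranked 11 among the 358 known miRNAs in controls and 9 with AA2P. The log2 fold change, on the scale of log2(TPM + 1), was 0.65 (SE 0.130, 95% confidence interval 0.34 to 0.97). It passed the test over all entries (limma, adjusted p = 0.0156). Of the 433 entries tested, 24.7% were called in either direction, 19.9% higher and 4.85% lower.

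miR-375 stood at 8.13, 6.73 and 6.99 TPM in control replicates 1, 2 and 3 and at 11.35, 10.54 and 11.08 TPM in AA2P replicates 1, 2 and 3. The groups did not overlap, as for miR-7-5p; this held, with AA2P higher, for 40.4% of the entries tested. The means were 7.28 ± 0.745 and 11.0 ± 0.412 TPM (SD, n = 3 per group), and over all libraries it ranked 209 among the 358 known miRNAs. The log2 fold change was 0.54 (SE 0.117, 95% confidence interval 0.25 to 0.82), and it passed (limma, adjusted p = 0.0197). Since 1 TPM is a sizeable share of such levels, this scale understates its change, which was 0.59 with a pseudocount of 0.1.

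miR-7-3p stood at 22.07, 23.17 and 25.09 TPM in control replicates 1, 2 and 3 and at 32.94, 24.71 and 28.54 TPM in AA2P replicates 1, 2 and 3. The groups overlapped, because AA2P replicate 2, the highest library for the partner strand, was the lowest of its group for this one and lay below control replicate 3. The log2 fold change was 0.28 (SE 0.129, 95% confidence interval -0.04 to 0.59), and it did not pass (limma, adjusted p = 0.162). The interval holds both no change and a change as large as that of miR-375.

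**Figure D1:**
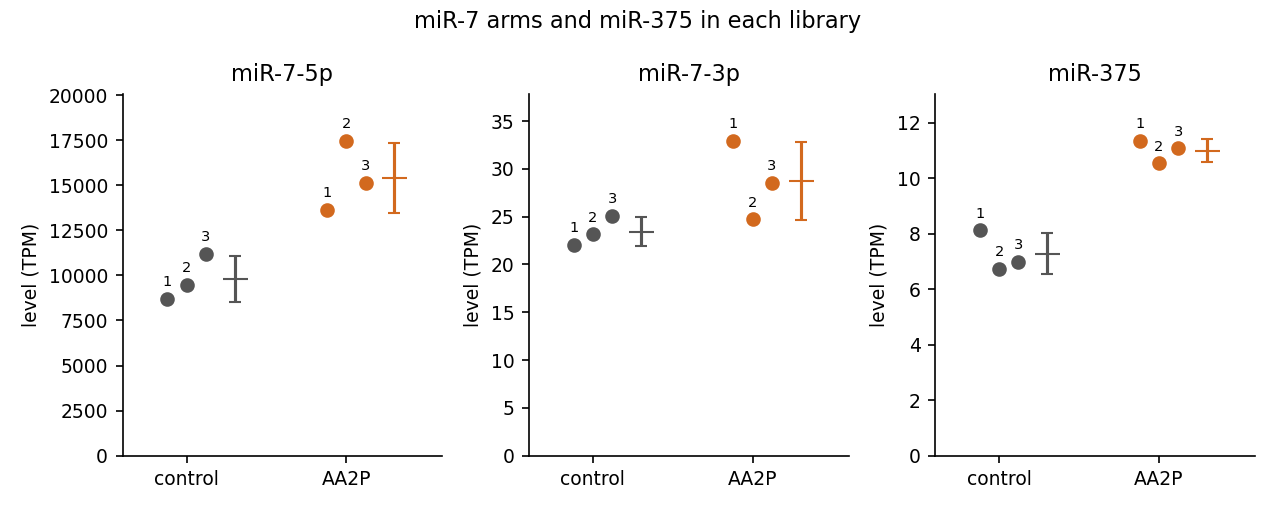
Level in TPM (vertical axes, linear from 0) of miR-7-5p, miR-7-3p and miR-375 in each library; points are libraries numbered by replicate, and the bar beside them is the mean ± SD of the 3 libraries. The AA2P points lie above all control points for miR-7-5p and miR-375, while for miR-7-3p AA2P replicate 2 lies at 24.71 TPM among the controls.

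The depth behind these values differed by member. The step between low values put the libraries at 25.8 to 36.0 Mreads (M for mega). At this depth miR-7-5p rested on 225111 to 628396 reads, miR-7-3p on 570 to 927 reads and miR-375 on 210 to 379 reads. For miR-375, the exact 95% Poisson intervals of the control libraries reached at most 9.31 TPM and those of the AA2P libraries went down to 9.50 TPM, so they did not meet. These intervals cover counting error only, because the reads carry no molecular identifiers and need not stem from different molecules.

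The spread between libraries was read against that counting error. For miR-7-5p the coefficient of variation was 12.9% in controls and 12.5% with AA2P, where counting alone gives 0.188% and 0.145%. For miR-7-3p it was 6.52% and 14.3%, where counting gives 3.82% and 3.33%. For miR-375 it was 10.2% in controls and 3.75% with AA2P, where counting gives 6.85% and 5.38%. The AA2P libraries thus differed in miR-375 by less than counting error alone would give, and in miR-7-5p by far more.

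TPM are shares of a library, so they move when an abundant miRNA moves. The most abundant entry, miR-21-5p, made up 51.3 to 53.0% of a control library and 37.0 to 44.1% of an AA2P library. Over the 433 tested entries the median log2 fold change was 0.25. Relative to that median, miR-7-5p was higher by 0.41, miR-375 by 0.29 and miR-7-3p by 0.03. By log2 fold change from the top, they ranked 73, 107 and 202 among the entries tested.

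When the libraries were scaled without miR-21-5p, the median of all entries was -0.01 and the log2 fold change of miR-7-5p was 0.36 (limma, adjusted p = 0.0871). That of miR-375 was then 0.27 (adjusted p = 0.203), and that of miR-7-3p changed sign to -0.0091 (adjusted p = 0.980). Over the deposited TPM and 5 other scalings, miR-7-5p was above the median of all entries by 0.37 to 0.41, miR-375 by 0.25 to 0.29 and miR-7-3p by 0.00024 to 0.027. miR-7-5p passed under 1 of the 5 other scalings, quantile normalization, with a log2 fold change of 0.40 (limma, adjusted p = 0.00116). miR-375 passed under none of them, with 0.26 to 0.36 (limma, adjusted p = 0.0804 to 0.203).

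**Figure D2:**
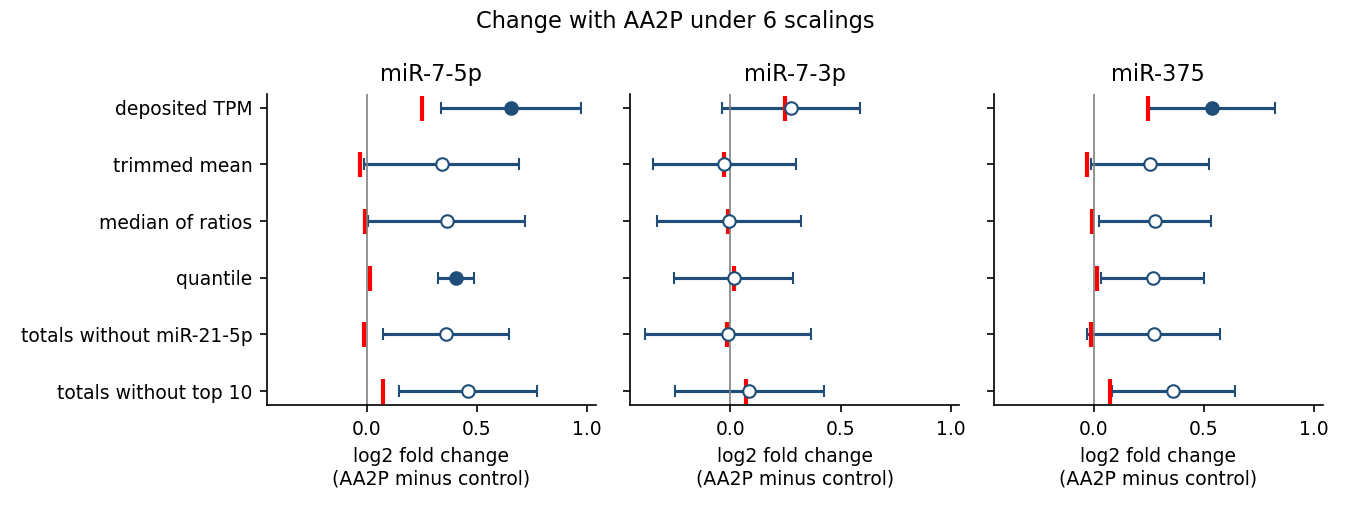
Log2 fold change (horizontal axes, AA2P minus control) of each member under the deposited TPM and 5 other scalings, with 95% confidence intervals from limma; filled points passed an adjusted p of 0.05, and the red mark is the median of all tested entries. The other scalings move the red mark from 0.25 to near 0, and the points of miR-7-5p and miR-375 move with it and stay to its right.

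Single libraries also mattered for the calls. Without control replicate 2, the adjusted p from limma was 0.0579 for miR-7-5p and 0.0608 for miR-375. The miR-375 call also ended without control replicate 3 (0.0803), AA2P replicate 1 (0.0622) or AA2P replicate 3 (0.0639). Its log2 fold change ranged from 0.49 to 0.61 as single libraries were left out, and that of miR-7-5p from 0.56 to 0.75.

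The entries miR-7-5p and miR-7-3p were compared within each library, where scaling cancels except for the pseudocount. Since either entry may pool the output of both miR-7 genes, the ratio is one of entries and not of a single hairpin. The 5p strand outnumbered the 3p strand 395, 410 and 446 times in control replicates 1, 2 and 3 and 414, 707 and 530 times in AA2P replicates 1, 2 and 3. AA2P replicate 1 lay inside the control range, and the other AA2P libraries lay above it. The log2 ratio was 8.64 ± 0.0937 in the control group and 9.02 ± 0.379 in the AA2P group (SD, n = 3 each). The difference of 0.38 did not pass (two-sided exact permutation test, p = 0.2, where 3 against 3 libraries allow at least 0.1). AA2P replicate 2 carried much of it, since without that library the difference was 0.18. Among the 39 pairs of 5p and 3p entries that each averaged at least 10 TPM, the miR-7 pair ranked 4 by the size of its log2 ratio.

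The changes of miR-375 and miR-7-5p were compared in the same way. The log2 ratio of miR-375 to miR-7-5p was -10.20 ± 0.281 in the control group and -10.32 ± 0.229 in the AA2P group (SD, n = 3 each). The groups overlapped widely. The difference of -0.12 did not pass (two-sided exact permutation test, p = 0.6), and it was 0.04 without control replicate 1 and 0.0046 without AA2P replicate 2. It also moved with the pseudocount, to -0.063 with 0.1 and -0.27 with 5. A difference between the changes of miR-375 and miR-7-5p was therefore not detectable with 3 libraries a group, which does not show that they changed alike.

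**Figure D3:**
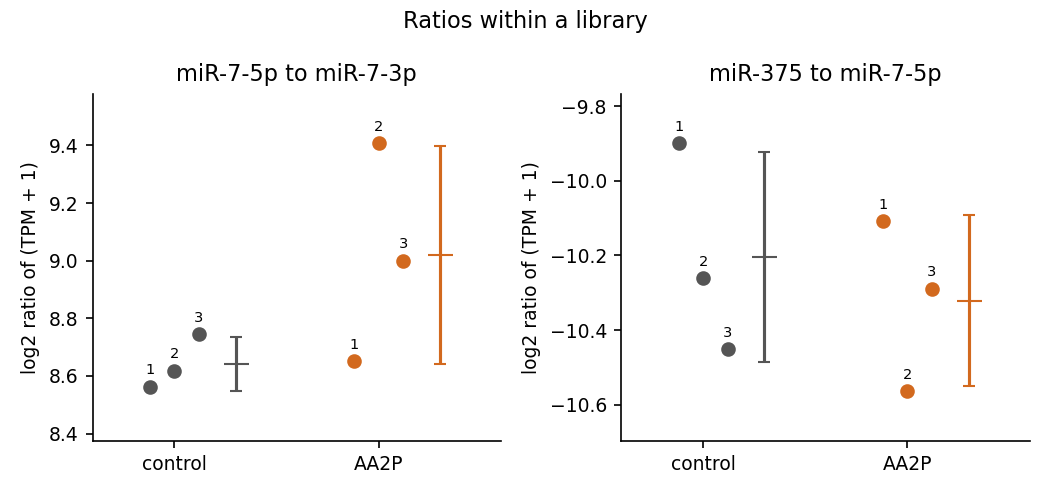
Log2 ratio of (TPM + 1) within each library (vertical axes, not starting at 0) for miR-7-5p to miR-7-3p and for miR-375 to miR-7-5p; points are libraries numbered by replicate, and bars are the mean ± SD of 3 libraries. AA2P replicate 2 has the highest strand ratio of miR-7, 9.41, and the groups overlap in both panels.

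In the order of mean levels over all libraries, miR-7-5p stood between miR-92a (13956 ± 1138 TPM in controls, 11717 ± 498 with AA2P) and miR-10b (9191 ± 720.3 and 12917 ± 1848 TPM). In controls it lay below miR-92a and within the spread of miR-10b, and with AA2P it lay above miR-92a. miR-375 stood between miR-325 (8.73 ± 0.675 and 10.0 ± 1.37 TPM) and miR-4331-3p (7.61 ± 0.361 and 10.45 ± 2.75 TPM). With AA2P the mean ± SD ranges of these neighbours meet that of miR-375, so their order is not resolved there. miR-7-3p (23.4 ± 1.53 and 28.7 ± 4.12 TPM) stood between miR-92b-5p (15.1 ± 2.18 and 38.8 ± 8.20 TPM) and miR-628-5p (22.4 ± 2.57 and 29.2 ± 2.49 TPM). That order holds over all libraries only, since in controls the mean of miR-7-3p lay above those of both.

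The profile over the 6 libraries, as log2(TPM + 1) centred on its own mean, was compared with that of the other known miRNAs that averaged 10 TPM or more. The measure was the root-mean-square difference, which is small where both the direction and the size of the differences between libraries match. For miR-7-5p, the closest were miR-19a (0.109), let-7f-5p (0.136), miR-454 (0.148), miR-374b-3p (0.150) and miR-190a (0.151), where the median candidate was at 0.30. Of these, let-7f-5p, miR-454, miR-374b-3p and miR-190a were called higher with AA2P and miR-19a was not (limma, adjusted p = 0.0746). Over all tested entries 19.9% were called higher. The matching takes in the difference between the groups, so these calls follow largely from the choice and are no separate result.

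For miR-375, the closest were miR-499-5p (0.0754), miR-9 (0.0783) and miR-425-5p (0.0814), where the median candidate was at 0.227. miR-9 took 3 of the 5 places, because the table holds it as 3 identical entries. miR-9, a miRNA of neural progenitors, rose 1.51-fold, from 2654 ± 79.2 to 4011 ± 346 TPM. For miR-7-3p, the closest were miR-130b-3p (0.0642), miR-18a (0.0699), miR-27b-3p (0.0732), miR-16 (0.0754) and miR-7142-3p (0.0863). None of them was called, which the matching to an uncalled entry also favours. The strands of miR-7 did not appear in each other's closest miRNAs.

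**Figure D4:**
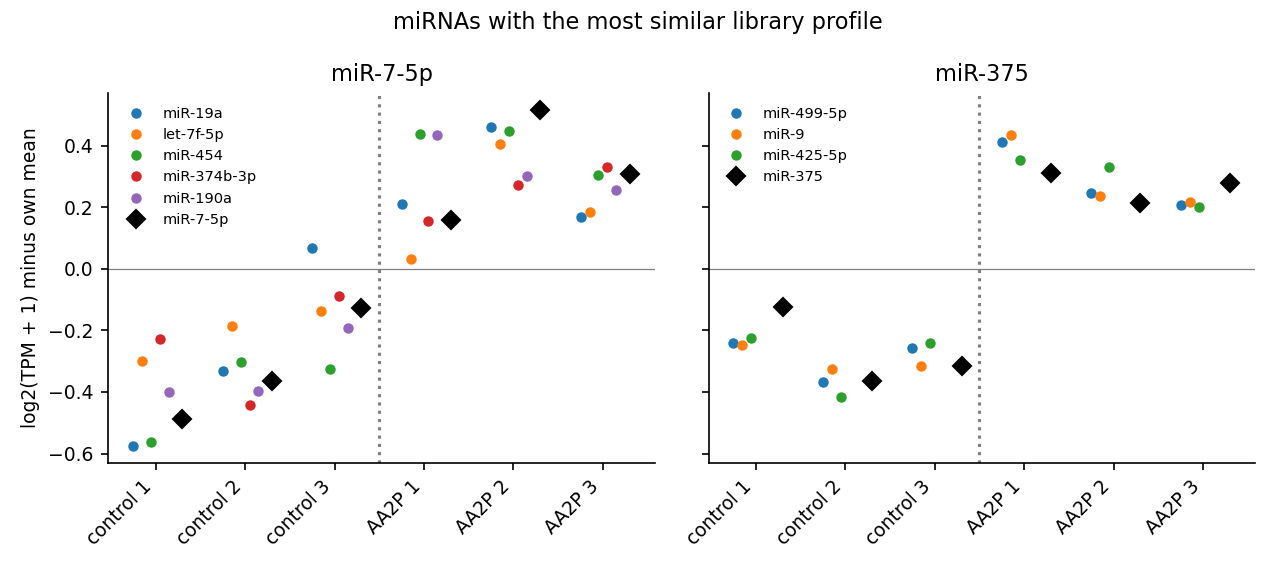
Log2(TPM + 1) minus the miRNA's own mean (vertical axis) in each of the 6 libraries for miR-7-5p, miR-375 (black diamonds) and the miRNAs closest to each (coloured points; miR-9 drawn once). The miR-7-5p points spread among the AA2P libraries, with replicate 2 highest, while those of miR-375 lie close together there.

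Other miRNAs known from neuroendocrine tissue were read beside the members. Of 11 neuronal miRNAs on the list, 10 were in the table and 8 of their 17 entries lay under 1 TPM in every library, among them miR-218, miR-137 and miR-153. The 17 entries hold 12 distinct sets of values, because miR-9, miR-129a-5p and miR-218 each have identical copies. Of the 17 entries 9 passed the filter, where 264 of the 358 known pig miRNAs did. Of the 9 entries tested, 3 were higher and 0 lower, all of them the identical miR-9 entries. With identical entries counted once, 1 of 6 was called higher, where 19.9% of all entries were, and the median log2 fold change was 0.42, against 0.25 over all tested entries. The miR-9 call ended with totals without miR-21-5p (limma, adjusted p = 0.0749) and held under the other 4 scalings. miR-128 stood at 1492 ± 166 and 1750 ± 181.7 TPM and miR-129a-5p at 151 ± 6.91 and 180 ± 21.1 TPM, and neither passed (limma, adjusted p = 0.185 and 0.137). Under 4 of the 5 other scalings miR-128 was lower with AA2P, and under 3 of them miR-129a-5p was.

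miRNAs of pancreatic islets and endocrine epithelium moved unequally. Of the 7 entries that reached 1 TPM in a library of each group, 3 were called higher and 0 lower. Among all tested entries 19.9% were called higher and 4.85% lower. The higher ones on the list were miR-184, miR-429 and miR-200b. All 3 were also called higher under each of the 5 other scalings. miR-184 rose 6.44-fold, from 271 ± 29.4 to 1747 ± 354 TPM. miR-204, a miRNA of beta cells and retinal pigment epithelium, stood at 0.54, 0.62 and 0.16 TPM in controls and at 3.68, 3.0 and 2.19 TPM with AA2P. It passed the filter only through the AA2P libraries, so its values are given with no test and it was left out of the counts, a choice made after its values were seen. miR-182 and miR-183, from a cotranscribed cluster known from sensory cells, stood at 6662 ± 413 and 6310 ± 1034 TPM and at 4413 ± 165 and 4015 ± 515 TPM, with neither called; under the other scalings miR-183 was called lower in 4 of 5 and miR-182 in 1. The median log2 fold change was 0.19 for the 7, against 0.25 over all tested entries. With miR-204 it would be 0.47, which is not read further because that entry passed the filter only through the AA2P libraries.

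**Figure D5:**
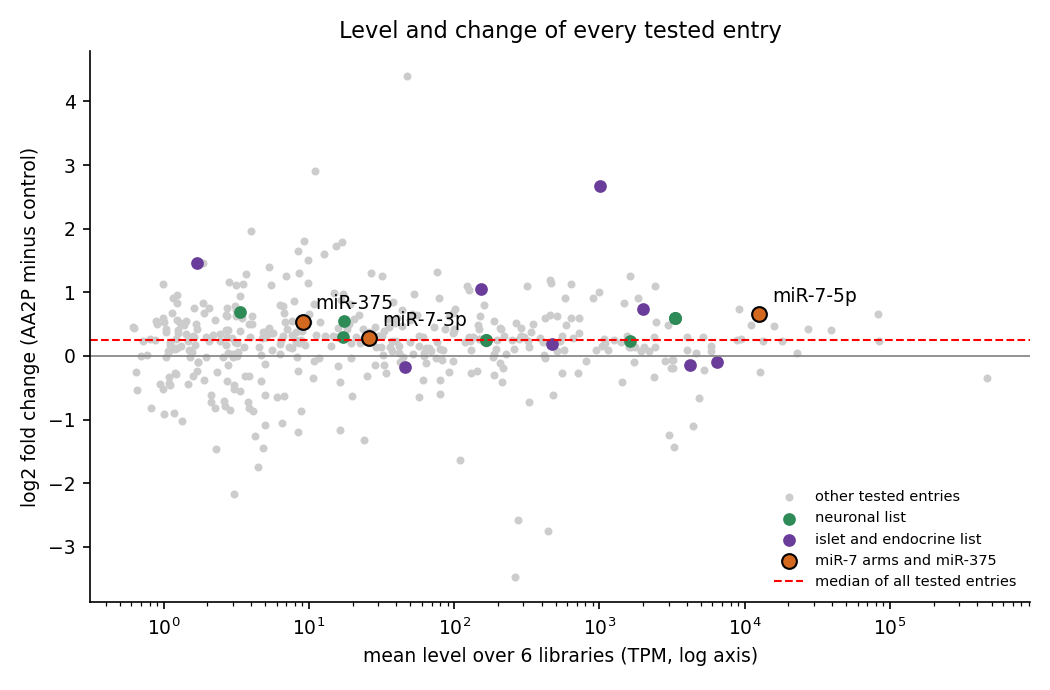
Log2 fold change (vertical axis, AA2P minus control) against mean TPM over the 6 libraries (horizontal log axis) for all 433 tested entries, with the miR-7 strands and miR-375, the neuronal list and the islet and endocrine list in colour and the median of all entries as a dashed line at 0.25. miR-7-5p lies at the abundant end and miR-375 near the scarce end at similar heights above the line, and miR-7-3p lies close to it. The islet and endocrine points include miR-204, which passed the filter only through the AA2P libraries.

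miR-671 is the miRNA known to direct the slicing of Cdr1as, the circular RNA that binds miR-7. miR-671-5p stood at 33.49, 37.59 and 37.82 TPM in control replicates 1, 2 and 3 and at 51.62, 52.29 and 48.02 TPM in AA2P replicates 1, 2 and 3. It was 1.40-fold higher (limma, adjusted p = 0.0138), and this call, like that of miR-375, held under none of the 5 other scalings. miR-671-3p, at 36.6 ± 3.55 and 43.1 ± 1.55 TPM, did not pass (limma, adjusted p = 0.137), and it was lower under 4 of the other scalings. Cdr1as itself was not analysed here.

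Of the other repressors of insulin, IGF and EGF receptor signalling on the list, 1 of 7 tested entries was higher and 0 lower, where 19.9% of all entries were called higher. It was miR-99a-5p, which rose 2.15-fold from 1529 ± 155 TPM. miR-100, with nearly the same sequence as miR-99a-5p, stood at 22532 ± 1853 and 23222 ± 2205 TPM and did not pass (limma, adjusted p = 0.746); it was lower under all 5 other scalings. miR-99b, at 2276 ± 176 and 2511 ± 186 TPM, did not pass either (limma, adjusted p = 0.294) and was lower under 4 of them. miR-126-3p, a miRNA of endothelium, stood at 101 ± 6.50 and 96.4 ± 12.2 TPM and was called lower under 3 of them (limma, adjusted p = 0.0225, 0.0238 and 0.0399). The sources used here do not say how reads shared by such near-identical miRNAs were assigned. The median log2 fold change of the 7 was 0.14.

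No miRNA defines Sertoli cells, so the labelled cell type was checked only against miRNAs of other cells. The summed level of 4 entries of other epithelia (miR-200b, miR-429, miR-141 and miR-205) was 1588 to 1675 TPM in control and 2414 to 2959 TPM in AA2P libraries, and miR-205 stayed under 1 TPM. Most of that sum was miR-200b, while miR-141 stood at 47.70, 45.28 and 45.40 TPM in control and 63.53, 20.54 and 50.89 TPM in AA2P replicates 1, 2 and 3. miR-200b, miR-429 and miR-141 are also on the islet and endocrine list, so this sum and the calls on that list share the same values. The 9 muscle and myoid entries summed to 168 to 228 and 220 to 308 TPM, and the 2 endothelial entries to 98.4 to 112 and 86.8 to 111 TPM. The 7 blood entries summed to 4.87 to 5.90 and 4.48 to 14.2 TPM and did not move together. Of these, miR-142-3p stood at 0.43 to 0.59 and 1.47 to 2.68 TPM and passed the filter only through the AA2P libraries. miR-486 went the other way, from 3.76 ± 0.549 to 2.34 ± 0.710 TPM (limma, adjusted p = 0.118), and was called lower under 3 of the 5 other scalings. Of the germ cell list 2 entries were present, miR-371-5p under 1 TPM in every library and miR-34c, and they summed to 169 to 183.2 and 213 to 283 TPM. The epithelial and germ cell sums were higher in every AA2P than in every control library, as miR-7-5p and miR-375 were. So were 40.4% of the entries tested. Almost all of the germ cell sum was miR-34c, called higher in the deposited TPM (limma, adjusted p = 0.0464) but under 0 of the 5 other scalings. The part of these markers in the differences of miR-7-5p and miR-375 was not tested.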

How the data were processed

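Small RNA of 6 libraries was sequenced on an Illumina NovaSeq instrument, per the labels' protocols. What the authors deposited is a single TPM table, rounded to 2 decimals, in which every library has the same total over known and predicted entries. The submitters' processing notes name Bowtie without saying which version or what for. The build, the miRBase release and the handling of shared reads are not given in the sources used. Low values stepped by 1 shared amount per library, all within 0.0051 TPM of whole reads, which gave the depths; no count test was run. At these depths 3 reads, the limit that a count of 0 allows, are 0.0834 to 0.116 TPM.

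Entries reaching 1 TPM in 3 or more of the 6 libraries were fitted as log2(TPM + 1) with limma 3.58.1 (R 4.3.3), with a mean-variance trend, two-sided, adjusted by Benjamini-Hochberg over all 433 and called under 0.05. Ratios were compared by exact permutation tests in scipy 1.17.1. No batch is labelled, so no block was used in this fit, and the replicate number was tried as a block in an alternative. The deviations of same-numbered libraries from their group means had correlations of 0.29, 0.06 and 0.18. The miRNAs named were the members, the 5 closest profiles, the neighbours in level, and for each of the 4 lists of related miRNAs (neuronal, islet and endocrine, Cdr1as, receptor signalling) the called and the 3 most abundant entries. Named after their values were seen were miR-128, miR-129a-5p, miR-218, miR-137, miR-153, miR-141, miR-205, miR-34c, miR-142-3p, miR-486, miR-126-3p, miR-371-5p, miR-1 and miR-143-3p. The members and lists were chosen with earlier results of these data known. Trimmed-mean scaling, median-of-ratios scaling, quantile normalization and totals without miR-21-5p or without the 10 most abundant miRNAs were tried as alternatives, with other pseudocounts and filters and each library left out.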

Additional observations from a re-analysis of the deposited data

Results flagged for a closer look

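Among the blood miRNAs, 3 entries too low in level to pass the filter lay under 1 TPM in all control libraries and reached 1 TPM in an AA2P library. Only entries high in an AA2P library were looked for, so this list cannot show a fall. How many entries outside the lists did the same was not counted, so no background share can be set beside these. miR-223 reached 5.40 TPM in AA2P replicate 1 but stood at 0.06 and 0 TPM in AA2P replicates 2 and 3. miR-142-5p reached 2.08 TPM in AA2P replicate 1 and stood at 0.72 and 0.74 TPM in AA2P replicates 2 and 3. miR-451 reached 1.11 TPM in AA2P replicate 3, and its groups overlapped, with 0.31, 0.81 and 0.63 TPM in controls and 0.82 and 0.31 TPM in AA2P replicates 1 and 2.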

How the results depend on the processing

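The log2 fold change of miR-7-5p was above 0 in all 20 alternatives and its call held in 15. It ended (limma, adjusted p) with trimmed-mean scaling at 0.34 (0.161), median-of-ratios scaling at 0.36 (0.149), totals without miR-21-5p at 0.36 (0.0871) and totals without the 10 most abundant miRNAs at 0.46 (0.0549). Leaving out single libraries gave 0.56 to 0.75, and the call ended only without control replicate 2. miR-375 was above 0 in all 19 alternatives run and its call held in 8; the filter of a mean of at least 10 TPM removes it. Its call ended with those scalings at 0.26 (0.162), 0.28 (0.126), 0.27 (0.203) and 0.36 (0.0804), with quantile normalization at 0.27 (0.116) and with no filter on low values at 0.54 (0.142). Leaving out single libraries gave 0.49 to 0.61 (0.0318 to 0.0803). The replicate block (the number shared by a control and an AA2P library) also ended it, at 0.54 (0.0786), kept that of miR-7-5p, at 0.65 (0.0310), and lowered the number of entries called from 107 to 63; the numbers are not shown to pair the libraries. miR-7-3p was called in none of its 20 alternatives (0.0734 to 0.989) and fell to -0.026, -0.0044 and -0.0091 under the first 3 scalings named above; single libraries left out gave 0.17 to 0.38.

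The 107 calls (86 higher, 21 lower) became 57 with no filter on low values and 62 to 98 with single libraries left out, the fewest without control replicate 3. They split into 46 higher and 51 lower with trimmed-mean scaling, 48 and 51 with median-of-ratios scaling, 44 and 40 with quantile normalization, 39 and 43 with totals without miR-21-5p, and 55 and 36 with totals without the 10 most abundant. The log2 ratio of miR-375 to miR-7-5p differed by -0.24 to 0.04 and that of the miR-7 arms by 0.18 to 0.56 with single libraries left out; without control replicate 1 and without AA2P replicate 2 the former was 0.036 and 0.0046, and with pseudocounts of 0.1 and 5 it was -0.063 and -0.27. The causes of these changes were not tested. Counting error is a larger share of the level for miR-375 and miR-7-3p, which rest on 210 to 927 reads, than for miR-7-5p.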
